A study of Mus musculus with 6 samples.

Results

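The axonemal dynein genes and the genes needed to build, dock and space dynein arms were described here in the mouse vestibular epithelium. The 33 genes were chosen by symbol, from a list of dynein chains and assembly, docking and ruler factors. All 33 were found among the 52636 genes of the count table. They were picked with earlier results of these data known, so their shares beside those of all genes describe them and test nothing. The 33 comprised 5 outer arm heavy chains, 9 inner arm heavy chains, 5 intermediate and light chains, 4 outer arm docking factors, 2 axonemal ruler proteins and 8 assembly factors. RNA was sequenced from 6 male mice of the 129S1/SvImJ strain, aged 2 to 4 months at the start. The 3 IDPN animals drank water with 30 mM 3,3'-iminodipropionitrile, a compound toxic to vestibular hair cells, for 8 weeks, and the 3 Control animals drank plain water over the same time. From each animal 2 utricles and 6 cristae were pooled into 1 library. All libraries carried 1 batch label. The animal codes of the 3 Controls shared a stem that no IDPN animal had, so that whatever this stem stands for and the treatment cannot be told apart.

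Axonemal dyneins are the motors that make motile cilia bend. Outer arms drive the beat and inner arms shape it, and both are put together in the cytoplasm by dedicated chaperone-like factors before they travel into the cilium. Vestibular hair cells carry a single true cilium, the kinocilium, at the edge of the stereocilia bundle, and mutations in many of these genes cause primary ciliary dyskinesia. In whole tissue, fewer cells of a type and less RNA per cell cannot be told apart.

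The libraries held 40474847 to 43566332 counts, of which the members took 0.0224% to 0.0358%. Hair cell genes were detected in every library, and their 30 listed markers summed to 54652 to 60261 normalised counts in the Controls and to 36011 to 40157 after IDPN. Stromal markers summed to 2572000 in Control 1 and to 1604400 in Control 3, with the IDPN libraries between these values. Neuron and Schwann cell markers summed to 204590 in Control 1 and to between 79088 and 109230 in the other libraries. Most defining genes of multiciliated cells were absent or low. Of 11 such markers, Gmnc, Cdc20b, Sntn and Tmem212 had 0 counts in every library, Mcidas reached at most 4.02 normalised counts, Ccdc78 at most 5.02 and Deup1 at most 10.9. Foxn4 (8.28 to 24.2) and Ccno (24.0 to 69.4) were low, and had log2 fold changes of -0.30 and -0.58 that did not pass. The tektins Tekt1 and Tekt4, filament proteins of ciliary microtubules that are also on that list, were present and were both called lower, with log2 fold changes of -0.67 and -0.89. The list summed to 2996 to 3093 in the Controls and 1711 to 2102 after IDPN, with a median log2 fold change of -0.62 over its 4 tested genes, and Tekt1 made up most of that sum. Its part in the members' differences was not tested.

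The 3 Dnah7 paralogs encode near-identical inner arm heavy chains. Their coding sequences were 96.8% to 97.3% identical, and 10.8% of 12000 aligned windows of 76 bases were the same in all 3. Of the 76-base words of each gene's longest transcript, 27.4% to 34.0% occur in another gene. The first 76 coding bases that align without a gap are printed from the GENCODE transcripts on GRCm38, 5′ to 3′. Capitals mark the 6 positions at which the paralogs differ.
Dnah7a: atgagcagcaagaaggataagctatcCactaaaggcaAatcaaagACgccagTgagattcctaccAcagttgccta
Dnah7b: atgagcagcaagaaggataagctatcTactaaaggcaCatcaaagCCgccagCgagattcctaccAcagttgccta
Dnah7c: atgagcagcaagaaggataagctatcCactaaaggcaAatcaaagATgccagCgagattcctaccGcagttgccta
Reads from identical stretches had to be shared out among these genes by the authors' quantification, so their separate values are uncertain and their sum is given below as well.

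A gene was called when its DESeq2 adjusted p was under 0.05 and its fold over 1.5. Of the 33 genes, 30 had enough counts for an adjusted p, and 10 of these were called lower in IDPN and 0 higher. At an unadjusted p under 0.05 the DESeq2 test had 15 lower and 1, Dnaaf5, higher, where 9.15% of all genes tested were lower and 7.77% higher at that level. By the adjusted p and fold, 3.42% of all 17650 genes tested were called lower and 2.32% higher. The log2 fold change was below 0 for 26 of the 30 genes and above 0 for 4, with a median of -0.55 against 0.02 over all genes. Every IDPN library lay below every Control library for 18 of the 30, where 11.4% of all genes did so, and above for 2, where 11.1% did. With edgeR's quasi-likelihood test 7 of the 10 were called lower and 0 members higher (2.19% of 16310 genes were called lower and 1.02% higher). When libraries were scaled to their total counts, which moved the median of all genes to 0.27, the members' median was -0.31, 24 were below 0 and 1, Armc4, was called (1.28% of 16712 genes lower, 3.64% higher).

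**Figure D1:**
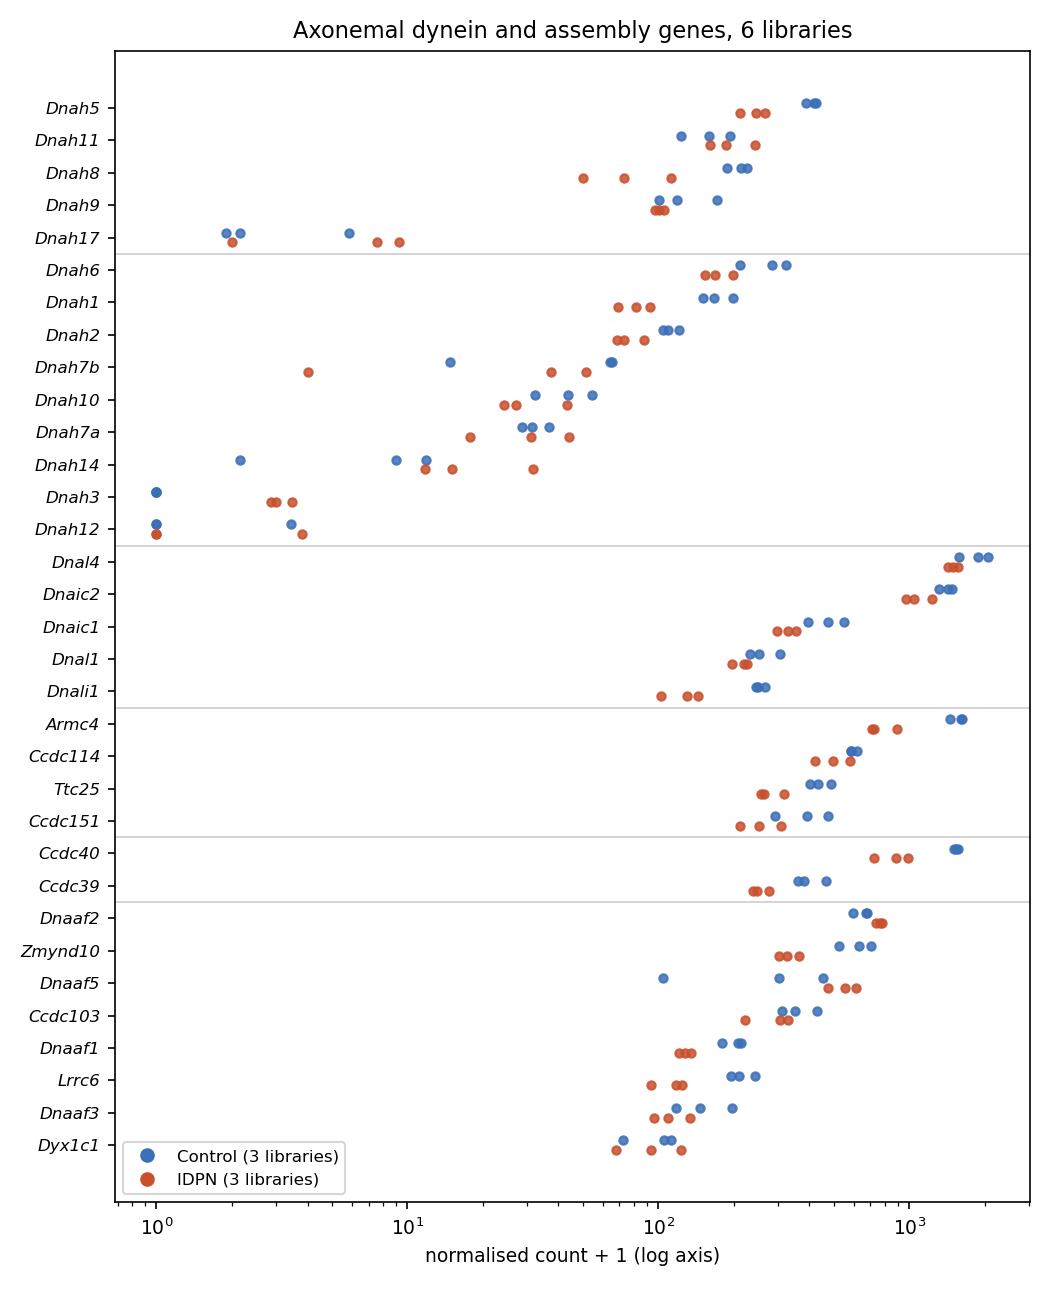
Normalised count plus 1 (log axis) of each of the 33 genes in the 3 Control (blue) and 3 IDPN (red) libraries, grouped by role from outer arm heavy chains at the top to assembly factors at the bottom. The groups do not overlap for the 10 called genes, and Dnah3, Dnah12 and Dnah17 sit near 0.

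**Figure D2:**
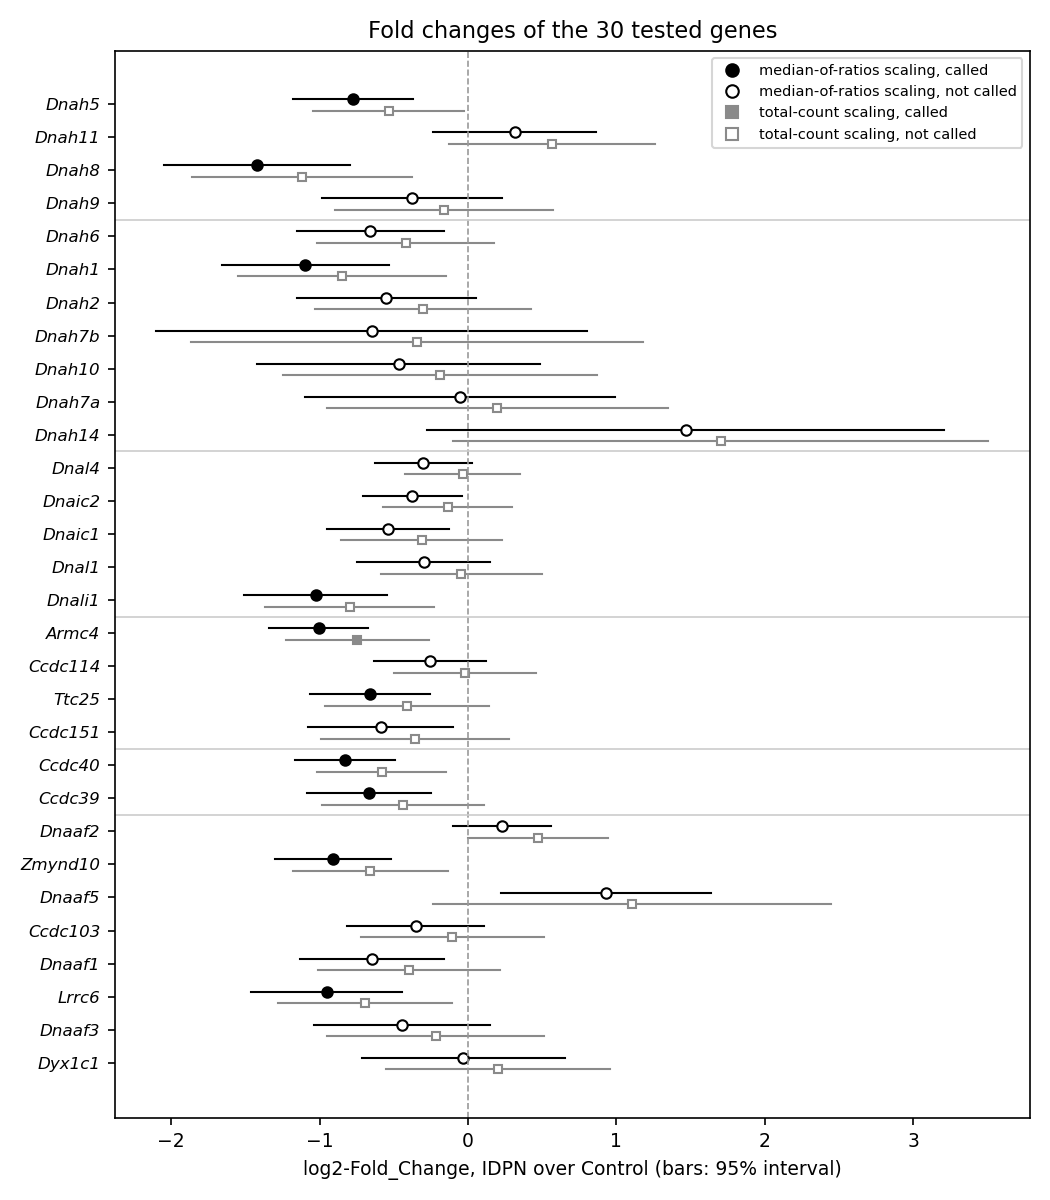
DESeq2 log2 fold change, IDPN over Control, with its 95% interval for the 30 tested genes, under median-of-ratios scaling (circles) and total-count scaling (squares); filled symbols passed both thresholds. Under the first scaling 10 genes are filled, all left of 0, and under the second Armc4 alone.

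The outer arm heavy chains Dnah5 and Dnah8 fell. Dnah5, the chain whose loss is a frequent cause of primary ciliary dyskinesia (chromosome 15, 28203752 to 28472052, GRCm38), had 386, 425 and 418 normalised counts in the Controls and 210, 244 and 264 after IDPN. The lowest Control stood well above the highest IDPN library, and the log2 fold change was -0.78 ± 0.21 (SE, n = 3 per group, DESeq2 adjusted p = 0.00518). Without IDPN 1 its adjusted p was 0.0653.

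Dnah8, a close relative of Dnah5 best known from sperm flagella (chromosome 17, 30624354 to 30877365), had 212, 225 and 187 counts in the Controls and 111, 49.2 and 71.9 after IDPN. It had the lowest log2 fold change of the tested members, -1.42 ± 0.32 (n = 3 per group, DESeq2 adjusted p = 4.94e-04), a 2.68-fold difference. The remaining outer arm chains were not called. Dnah11 had 122 to 192 counts in the Controls and 160 to 242 after IDPN, a log2 fold change of 0.31 with a 95% interval of -0.24 to 0.87. Dnah9 ranged from 99.3 to 171 and from 96.0 to 105 in the same order. The sperm chain Dnah17 stayed at or below 8.28 counts and was not tested.

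Of the inner arm heavy chains, Dnah1 fell. This single-headed chain, whose mutation causes malformed sperm flagella (chromosome 14, 31260375 to 31323896), had 166, 150 and 198 counts in the Controls and 91.9, 68.3 and 80.3 after IDPN. Its values did not overlap, and the log2 fold change was -1.10 ± 0.29 (n = 3 per group, DESeq2 adjusted p = 0.00432). Dnah6, another single-headed chain, had 211, 321 and 284 counts in the Controls and 153, 168 and 197 after IDPN, again with no overlap, but did not pass (log2 fold change -0.66, adjusted p = 0.103). Dnah2, a chain of the double-headed inner arm, had 103 to 120 and 67.2 to 86.9 counts (log2 fold change -0.55, adjusted p = 0.360).

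Dnah10, the partner of Dnah2 in the double-headed arm, had a log2 fold change of -0.47, Dnah7b of -0.65 and Dnah7a of -0.06, the last turning to 0.20 under total-count scaling. Summed over Dnah7a, Dnah7b and Dnah7c, the libraries held 101, 47.3 and 117 counts in the Controls and 99.3, 35.1 and 54.1 after IDPN, and the groups overlapped. Their means were 88.2 ± 36.3 and 62.9 ± 32.96 (SD, n = 3), which did not differ beyond the spread (two-sided exact permutation test, p = 0.40, where 0.10 is the smallest p possible). Dnah14 was low and variable, from 1.15 to 10.9 in the Controls and from 10.8 to 30.8 after IDPN (log2 fold change 1.47 ± 0.89, adjusted p = 0.420). Dnah3 was at 0 in all Controls and at 1.87 to 2.48 after IDPN, and Dnah12 did not exceed 2.80, so neither was tested.

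Among the intermediate and light chains, Dnali1 fell. This light intermediate chain of the inner arms (chromosome 4, 125055338 to 125065703) had 245, 249 and 264 counts in the Controls and 102, 143 and 129 after IDPN. The Controls lay close together and every IDPN library was far below them (log2 fold change -1.03 ± 0.25, n = 3 per group, DESeq2 adjusted p = 0.00137). The outer arm intermediate chains Dnaic1 and Dnaic2 and the light chains Dnal1 and Dnal4 did not overlap between groups either, but none was called.

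Dnaic1 had 473, 395 and 549 counts in the Controls and 329, 351 and 295 after IDPN (log2 fold change -0.54, adjusted p = 0.109). Dnaic2 had 1312, 1475 and 1425 against 1047, 1235 and 970 (-0.37, adjusted p = 0.204). Dnal4 had 1878, 2063 and 1572 against 1427, 1558 and 1490 (-0.30, adjusted p = 0.355). For Dnal4 the gap between groups was small beside the spread of the Controls. Dnal1, the light chain that binds an outer arm motor domain, had 230, 304 and 250 against 218, 224 and 195 (-0.30, adjusted p = 0.569).

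The docking factors attach outer arms to the microtubule doublet. Armc4 (chromosome 18, 7088209 to 7297936) had 1625, 1454 and 1600 counts in the Controls and 895, 726 and 710 after IDPN. Each IDPN library was far below each Control, and Armc4 had the lowest adjusted p of the 33 genes (log2 fold change -1.01 ± 0.17, n = 3 per group, DESeq2 adjusted p = 5.19e-07). With total-count scaling its adjusted p was 0.0497.

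Ttc25 (chromosome 11, 100545607 to 100572568) had 431, 401 and 485 counts in the Controls and 315, 263 and 256 after IDPN (log2 fold change -0.66 ± 0.21, DESeq2 adjusted p = 0.0272). Its values did not overlap, but of the 6 fits with a library left out only that without IDPN 1 kept the call. The Ttc25 call was also lost with edgeR (adjusted p = 0.0685) and with DESeq2 under total-count scaling (-0.41, adjusted p = 0.428). The other docking factors were not called. Ccdc114 had 587, 583 and 619 counts against 496, 582 and 420, with the groups all but touching (log2 fold change -0.26, adjusted p = 0.560). Ccdc151 had 291, 391 and 473 against 251, 211 and 308, and overlapped (-0.59, adjusted p = 0.162).

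The RNA of both ruler genes fell. Ccdc39 and Ccdc40 form the coiled-coil ruler that sets the spacing of inner arms and regulatory complexes along the doublet. Ccdc40 (chromosome 11, 119228572 to 119265238) had 1562, 1529 and 1508 counts in the Controls and 881, 984 and 726 after IDPN, with a log2 fold change of -0.83 ± 0.17 (n = 3 per group, DESeq2 adjusted p = 1.15e-04). Its Controls differed little from each other, and no IDPN library came near them. Ccdc39 (chromosome 3, 33812362 to 33844310) had 380, 359 and 465 against 247, 276 and 237 (-0.67 ± 0.21, DESeq2 adjusted p = 0.0313). The Ccdc39 call was kept without Control 2 and without IDPN 2, and lost without any other library. It was also lost with edgeR (adjusted p = 0.0744) and with DESeq2 under total-count scaling (adjusted p = 0.385). In addition, 26.8% of the 76-base words of its longest transcript also occur in Ttc14 on the opposite strand, which a kit that does not mark strand cannot separate.

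Of the 8 assembly factors 2 were called lower. Zmynd10, a co-chaperone adaptor (chromosome 9, 107547298 to 107551319), had 524, 706 and 630 counts in the Controls and 362, 325 and 302 after IDPN. The groups were well separated (log2 fold change -0.91 ± 0.20, n = 3 per group, DESeq2 adjusted p = 3.29e-04). Lrrc6, which binds Zmynd10 (chromosome 15, 66379858 to 66500910), had 209, 241 and 194 against 117, 124 and 92.4 (-0.95 ± 0.26, DESeq2 adjusted p = 0.00752). The Lrrc6 adjusted p was 0.0844 without Control 2, 0.0655 without IDPN 3 and 0.0507 with edgeR.

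Dnaaf2, a PIH-domain factor for early assembly steps, and Dnaaf5, a HEAT-repeat factor, had higher values after IDPN in every library, but neither was called. Dnaaf2 had 596, 672 and 677 counts in the Controls and 780, 763 and 734 after IDPN (log2 fold change 0.23, DESeq2 adjusted p = 0.553). Of the 76-base words of its longest transcript, 66.3% occur in other annotated genes. Dnaaf5 had 103, 302 and 453 against 611, 552 and 473. The spread lay in the Controls, and the log2 fold change of 0.93 (adjusted p = 0.113) became 0.52 without Control 1 (adjusted p = 0.343) and 1.43 without Control 3, where an adjusted p of 0.00277 passed.

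Ccdc103, a factor for arm assembly and attachment, had 309, 350 and 427 counts in the Controls and 305, 220 and 327 after IDPN, and overlapped (-0.35, adjusted p = 0.489). Dnaaf1, a leucine-rich repeat factor, had 178 to 213 against 119 to 134 with no overlap (-0.65, adjusted p = 0.103). Dnaaf3 had 116 to 195 against 95.2 to 132 (-0.45). Dyx1c1 had 71.6 to 112 against 67.0 to 122 (-0.03, and 0.20 under total-count scaling). Dyx1c1 shares 92.6% of the words of its longest transcript with other annotated genes, so its level is uncertain.

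Summed by role in normalised counts, 5 of the 6 roles had lower levels in every IDPN library than in any Control. Of all single genes tested, 11.4% did so, but that share does not apply to sums over several genes. No like share for sums was taken. As a share of all counts the members together overlapped between groups, with 0.0287% in IDPN 1 and 0.0248% in Control 1. The role sums were not taken under total-count scaling. Docking factors summed to 2829 to 3178 counts in the Controls and 1694 to 1956 after IDPN, and ruler proteins to 1888 to 1973 and 963 to 1260. The outer arm heavy chains summed to 873 to 969 and 553 to 668, the inner arm heavy chains to 642 to 751 and 384 to 481, and the intermediate and light chains to 4061 to 4485 and 3079 to 3511. The assembly factors overlapped between groups, with 2175 to 2892 in the Controls and 2272 to 2508 after IDPN.

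Per kilobase of longest annotated transcript, the heavy chains were rarest, at 0 to 26.2 normalised counts per kb in the Controls. The other members lay at 45.6 to 1248 per kb, with Dnal4 at 1248, Dnaic2 at 489 and Armc4 at 445. The heavy chain transcripts were 12.0 to 16.7 kb long and were primed from the poly(A) tail, and the part of length in this order was not tested. Members were also divided by length. Those with transcripts of at least 10 kb had a median log2 fold change of -0.55 (3 of 11 tested called lower) and the shorter ones -0.54 (7 of 19). Other protein-coding genes of at least 10 kb had a median of 0.03, with 29 of 359 called lower (8.08%), and shorter ones a median of 0.01, with 538 of 14289 called lower (3.77%).

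**Figure D3:**
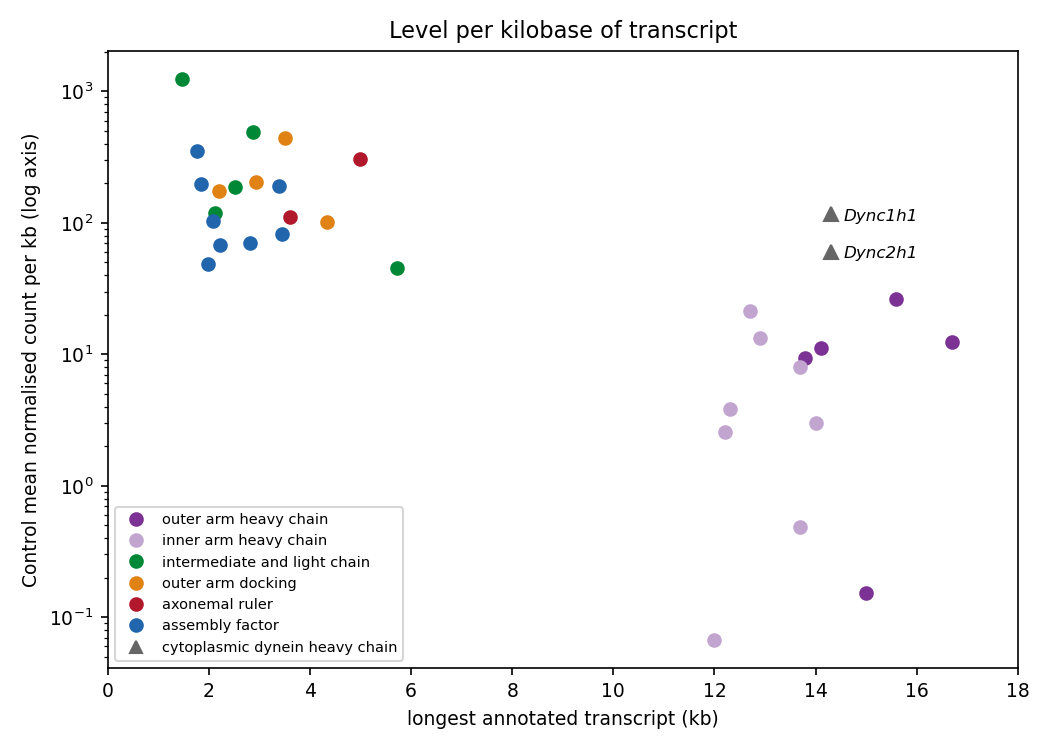
Control mean normalised count per kb (log axis) against the length of the longest annotated transcript (kb), coloured by role, with the cytoplasmic dynein heavy chains Dync1h1 and Dync2h1 as triangles. Dnah3, at 0 in the Controls, cannot be drawn on the log axis, and all axonemal heavy chains lie at or below 26.2 per kb, under both cytoplasmic chains.

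Dynein genes outside the 33 were set beside them. A list of further axonemal dynein genes, which also held assembly factors, had 27 genes in the table. Of these, 24 were tested and 5 were called lower. They were Dynlrb2, a roadblock light chain (log2 fold change -1.25, DESeq2 adjusted p = 2.63e-08), Wdr63, an inner arm intermediate chain (-0.84, 2.16e-04), Mns1 (-0.76, 0.00636), Pih1d2 (-0.75, 0.0241) and Cfap57 (-1.65, 0.0439). Not every gene on this list is confined to the axoneme. The Dynlrb2 paralog Dynlrb1 was placed with cytoplasmic dynein 1 and was not called (-0.16). The calls of Dynlrb2 and Wdr63 held with edgeR, while Mns1 (0.0558), Pih1d2 (0.0742) and Cfap57 (0.131) were lost. With a library left out, Pih1d2 stayed called only without Control 1 and Cfap57 only without IDPN 2, and Mns1 was lost without IDPN 2. Under total-count scaling Dynlrb2 alone stayed called. The most abundant ones not called were Ruvbl1 (-0.13) and 1110004E09Rik (-0.16). The nexin-dynein regulatory complex, which links neighbouring doublets and relays control to the arms, had 8 genes tested and 4 called lower, namely Drc7 (-1.06), Drc1 (-0.86), Tcte1 (-0.82) and Ccdc65 (-0.66). All 4 were also called by edgeR and none under total-count scaling, Tcte1 was lost without Control 2 and Ccdc65 without IDPN 3. Drc3, the most abundant one not called, had an adjusted p of 0.00855 but a log2 fold change of -0.54, under the 1.5-fold limit, and Iqcg had -0.44.

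Cytoplasmic dyneins carry cargo along microtubules, and their lists had medians nearer 0. For cytoplasmic dynein 1 and dynactin, 0 of 22 genes were called by DESeq2 or edgeR, and the median log2 fold change was -0.03 (0.23 under total-count scaling). At an unadjusted p under 0.05 there were 3 lower and 3 higher, beside 9.15% and 7.77% of all genes. Without Control 3, Dync1i1 and Dynlt3 were called lower and Bicd2 higher, in a fit that called 4.5% of 15985 genes lower and 3.82% higher. The motor chain Dync1h1 was higher in every IDPN library (1510, 1570 and 1914 against 2204, 2093 and 2359) but did not pass (0.41, adjusted p = 0.122). The most abundant members were Dynlt3 (-0.44) and Dynll1 (-0.15). Cytoplasmic dynein 2 moves material down the cilium towards its base. Of its 5 genes the intermediate chain Wdr34 was called lower (1452, 1331 and 1143 against 776, 901 and 783, log2 fold change -0.67, DESeq2 adjusted p = 0.00359), and the list's median was -0.34. Its adjusted p under total-count scaling was 0.231. The difference between lists was not tested.

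**Figure D4:**
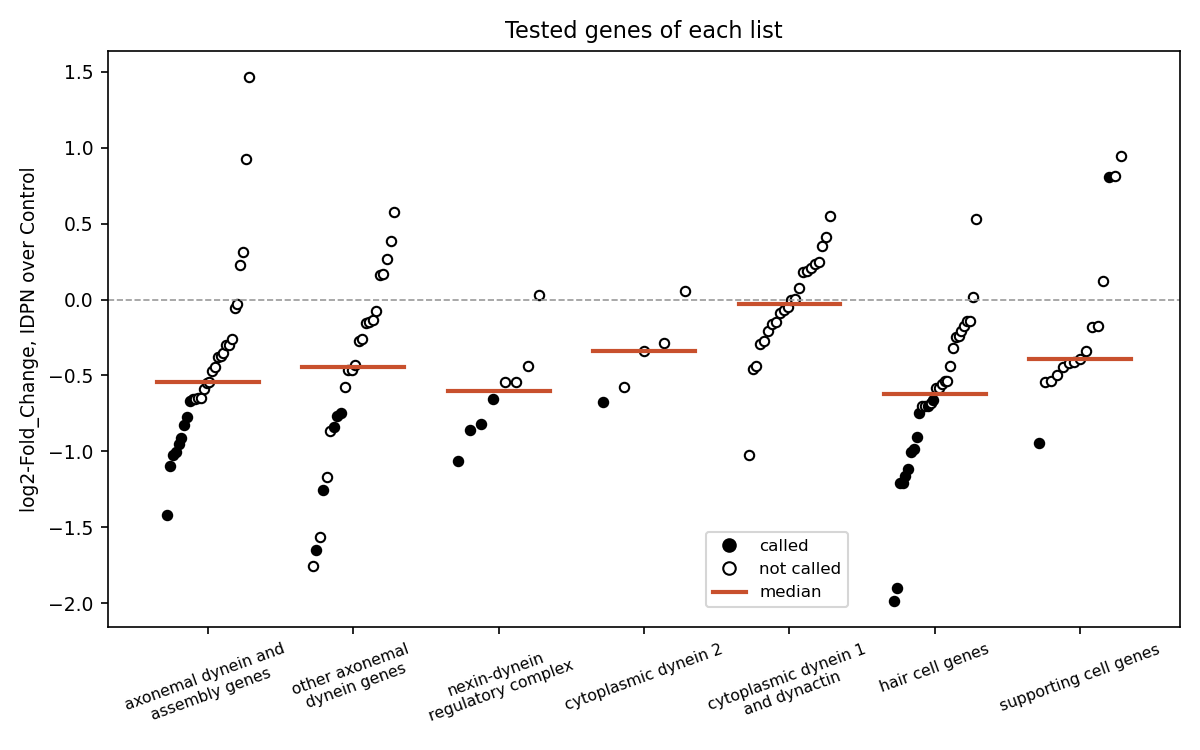
DESeq2 log2 fold change, IDPN over Control, of each tested gene in 7 lists, with called genes filled and the median as a bar. The medians of the axonemal dynein and assembly genes (-0.55), of the nexin-dynein regulatory complex (-0.60) and of hair cell genes (-0.62) lie below that of cytoplasmic dynein 1 and dynactin (-0.03). In between lie the other axonemal dynein genes (-0.45), the supporting cell genes (-0.39) and cytoplasmic dynein 2 (-0.34).

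Hair cell genes were lower in the same libraries. Of the 30 on that list, 12 were called lower, with a median of -0.62. The mean log2 level against the Control mean was -0.33, -0.54 and -0.44 for the members in IDPN 1 to 3, and -0.55, -0.64 and -0.76 for the hair cell genes. For the 10 called members alone it was -0.84, -0.96 and -1.01, but these were picked as lower in the same libraries. The means of the tested members and of the hair cell genes were below every Control in each IDPN library. For the called members this was fixed by how they were picked. The called members and the hair cell genes were lowest in IDPN 3, and the tested members as a whole in IDPN 2. Other cell types' genes differed in the same libraries. Of 15 supporting cell genes 1 was called lower and 1 higher (median -0.39), and their sums, 377790 to 531710 in the Controls and 275110 to 341520 after IDPN, did not overlap. Of 10 neuron and Schwann cell genes tested 3 were called lower and 1 higher (median -0.44), and of 9 dark and transitional cell genes 0 lower and 1 higher (median -0.35). Of 10 stromal genes 1 was called lower (median 0.04). Of 10 macrophage genes 0 were called lower and 1 higher (median 0.53), and they summed to 5851 to 7573 in the Controls and 8366 to 12894 after IDPN. The part of these cell types in the members' differences was not tested.

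**Figure D5:**
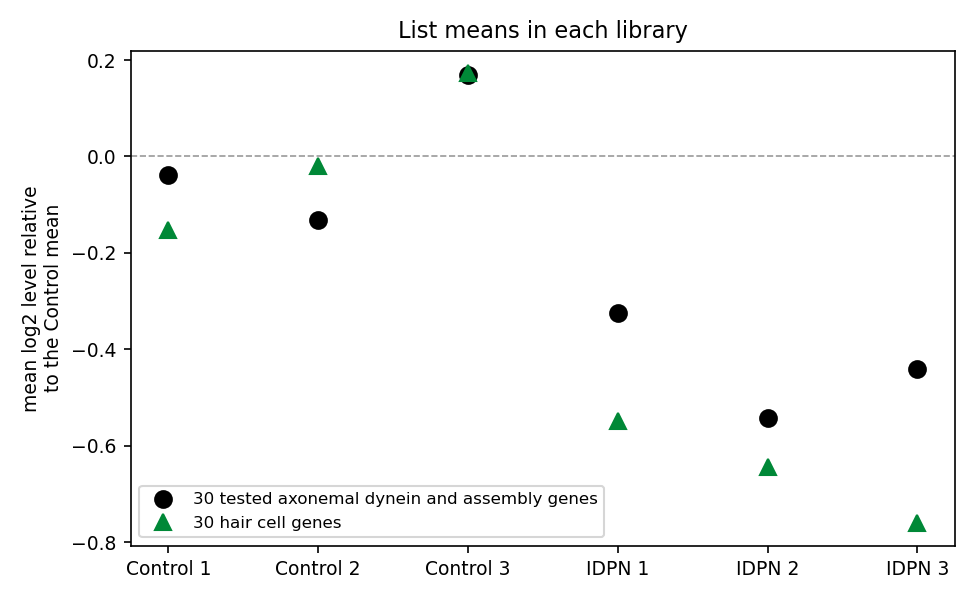
Mean log2 level relative to the Control mean in each library, for the 30 tested axonemal dynein and assembly genes (circles) and for 30 hair cell genes (triangles). In the IDPN libraries the circles lie between -0.54 and -0.33 and the triangles between -0.76 and -0.55.

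Regulators of motile cilia genes were looked at last. Of 7 such factors 5 were tested, with 1 called lower and 0 higher, where 3.42% and 2.32% of all genes were. Their log2 fold changes were below 0 for 3 and above 0 for 2, with a median of -0.40. Rfx3, a factor that binds the X-box of ciliary promoters, was called lower (455, 527 and 532 against 313, 284 and 384, log2 fold change -0.63, DESeq2 adjusted p = 0.0396). The call was kept without IDPN 3 but lost without any other library, with edgeR (0.0841) and with total-count scaling (0.453). Foxj1, the forkhead factor of motile ciliogenesis, had 246, 305 and 492 counts in the Controls and 176, 249 and 151 after IDPN. The groups overlapped by 1 library and it was not called (-0.86, adjusted p = 0.0568). Rfx2 had -0.40 and was not called.

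The 250 bases before the RefSeq start (GRCm38.p6) were given for 28 of the 33 genes and 7 of the 10 called ones. GTTGCC or GTTACC, which form an arm of the X-box, occurred on either strand in 7 of the 28 (25.0%), where 17.6% of 27025 genes held one. An arm followed within 3 bases by a reverse-complement arm occurred in 0 of the 28 and in 114 of the 27025 genes (0.422%). The forkhead cores TGTTTAC or TGTTTGT occurred in 1 of the 28 (3.57% against 9.86%). Of the 7 called genes with a promoter sequence, Dnah8 alone held an X-box arm, 159 bases before its start. It is shown because Dnah8 had the lowest log2 fold change of the tested members, from GRCm38.p6, plus strand, chr17:30626757-30626802, with the arm in capitals.
Dnah8: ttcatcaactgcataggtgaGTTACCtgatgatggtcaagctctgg
This stretch lies inside the Dnah8 gene as GENCODE draws it, which starts further upstream at 30624354. A match is a description of letters and not of binding.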

How the data were processed

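Vestibular epithelia of 3 Control and 3 IDPN mice were sequenced (SMART-seq2, unstranded). The authors aligned reads to GRCm38 with STAR 2.5.3a and quantified genes with RSEM 2.3.0 on GENCODE, per the submitters' processing notes and methods. The deposited values are expected counts, which were taken as whole numbers with any fraction dropped. Replicates are separate animals numbered in accession order. The members and lists were chosen with earlier results of these data known.

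DESeq2 1.42.0 (R 4.3.3, Wald test, median-of-ratios size factors) compared IDPN with Control over all genes, with Benjamini-Hochberg adjustment. Normalised counts are counts divided by these factors. Called genes had an adjusted p under 0.05 and a fold over 1.5. Values in every library are given for called members, and for others with a mean of at least 200. From each list the called genes, at most 6, and the 2 most abundant uncalled were named. The alternatives were edgeR 4.0.16, other scalings and filters, transcript length offsets, a test against the fold limit and each library left out. Tested on simulated data, both tools made more false calls than the nominal rate, edgeR fewer. Coordinates and lengths come from a later GENCODE release on GRCm38. Totals of 40474847 to 43566332 counts leave genes with few counts imprecise.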

Additional observations from a re-analysis of the deposited data

How the results depend on the processing

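The 10 members called lower stayed 10 with TMM scaling, a count filter, independent filtering off, Cook's filter off and length offsets. They were 7 with edgeR and 7 to 9 with a library left out. Over all genes, 604 were called lower in the main fit, 357 with edgeR and 214 with total counts. With a library left out, 436 to 720 of all genes were called lower and 234 to 611 higher. Scaling to total counts left 1 member, 1 further axonemal dynein gene, 0 nexin-dynein regulatory complex genes and 0 cytoplasmic dynein 2 genes, with a members' median of -0.31, and turned Dnah7a to 0.20 and Dyx1c1 to 0.20. Testing against a fold of 1.5 left 0 of each of these 4 lists, since that test asks more of the same libraries. It called 111 of all genes lower and 34 higher. The 10 members called in the main fit had folds of 1.58 to 2.68 there. With edgeR 2 further axonemal dynein genes were called. With a library left out, further axonemal dynein genes called ranged from 3 to 4, members called higher from 0 to 1, cytoplasmic dynein 1 genes from 0 to 3 and cytoplasmic dynein 2 genes from 1 to 2, the highest of the last 3 all without Control 3. The members' median ranged from -0.58 to -0.41, Dnah7a from -0.41 to 0.23 and Dyx1c1 from -0.27 to 0.17, and the Dnah7 sum's log2 ratio from -0.98 to -0.20. No cause of these shifts was tested. No paired analysis was possible because the labels give the groups no shared replicate numbers. With 3 animals a group, genes with few counts had wide intervals, as for Dnah14 (SE 0.89 on the log2 scale).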
